A study of Rattus norvegicus with 9 samples.

Results

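The genes described here encode the ligands, receptors and SMAD proteins of the transforming growth factor beta (TGF-beta) and bone morphogenetic protein (BMP) pathways, as measured by RNA sequencing of rat dorsal root ganglia (DRG), the sensory ganglia beside the spinal cord. They were chosen by gene symbol: every gene whose symbol starts with Bmp, Smad, Acvr, Inha or Inhb, or with Gdf and a digit, together with Tgfb1, Tgfb2, Tgfb3, Tgfbr1, Tgfbr2 and Tgfbr3. The rule found 49 of the 20413 genes in the expression table, and used no measured value. By role they were 3 TGF-beta ligands, 18 BMP and growth differentiation factor (GDF) ligands, 5 activin and inhibin subunits, 7 type I receptors, 4 type II receptors, 1 co-receptor, 5 receptor-activated SMADs, 1 common SMAD, 2 inhibitory SMADs and 3 others that carry the name without one of these roles (Bmp1, Bmp2k and Bmper).

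The study used male Sprague-Dawley rats and a model of limb ischaemia and reperfusion, chronic post-ischaemia pain (CPIP), made by placing a tight O-ring around one ankle for a time and then removing it. Sham rats wore a ring that had been cut open, CPIP rats had the model and no further treatment, and CPIP+EA rats had the model and bilateral electroacupuncture at the Zusanli and Kunlun points of the hind limb, daily for 10 days. The lumbar DRG of the right side only, ipsilateral to the ring, were collected on day 10, with 3 libraries in each group from 3 rats. The 3 comparisons ask what the model changed (CPIP against Sham), what the treatment changed (CPIP+EA against CPIP), and what differed from Sham after treatment (CPIP+EA against Sham); each pair of comparisons shares a group, so they are not independent of each other.

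Ligands of this family bind a complex of type II and type I receptor kinases, and the type I receptor then phosphorylates receptor-activated SMADs. The TGF-beta and activin receptors act mainly through SMAD2 and SMAD3, and the BMP receptors through SMAD1, SMAD5 and SMAD9; both sets join SMAD4 and enter the nucleus, while SMAD6 and SMAD7 hold the pathway back and are themselves induced by it. In sensory ganglia the BMP and SMAD1 branch is known for its part in the axon growth of sensory neurons, and TGF-beta ligands are made by glia, fibroblasts and neurons.

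Levels are FPKM (fragments per kilobase of transcript relative to the mapped reads of the library), which account for gene length and so can be set side by side between genes. FPKM summed over all genes lay between 445647 and 482940 in the 9 libraries, and the genes of the family made up 0.0653% to 0.0772% of it. All 10 sensory neuron markers checked were above 0, and they summed to between 8074 and 9987 FPKM, so the libraries carried the markers of the labelled tissue. Among 12 lists of cell type markers, the summed level separated groups in 1 case only: the 4 satellite glia markers summed to 266 to 292 FPKM in Sham and to 243 to 262 in CPIP. CPIP+EA replicate 3 had the highest neutrophil and erythroid sums, at 589 and 5012 FPKM, and CPIP+EA replicate 2 the lowest fibroblast sum, at 827.6 FPKM. In bulk tissue, fewer cells of a type and less RNA per cell cannot be told apart.

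Of the 49 genes, 42 had a mean of at least 0.1 FPKM over the 9 libraries and were tested, 33 had a mean of at least 1 and 14 a mean of at least 10. The 7 genes left untested were the ligand genes Gdf7, Bmp8a, Bmp10 and Bmp8b, the subunit genes Inhbc and Inhbe, and the receptor gene Acvr1c, each near 0 throughout. Tgfbr2 and Bmpr2, which encode the type II receptors for TGF-beta and for BMPs, had the highest levels of the family, with means of 37.2 and 30.3 FPKM. Next came the co-receptor Tgfbr3 at 23.1, by Bmp1 at 22.4 and by Smad2 at 18.8 FPKM. Of the ligand genes only Gdf11 and Tgfb3 exceeded a mean of 10 FPKM.

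A single gene of the family passed the test in any comparison. At the threshold used here, an adjusted p under 0.01 in limma with a change of at least 1.5-fold, 0 of the 42 genes passed for CPIP against Sham, where 0.355% of all 17187 genes tested passed, and 0 passed for CPIP+EA against CPIP, where 0% of all genes did. For CPIP+EA against Sham 1 gene passed, Smad1, against 0.483% of all genes. At an unadjusted limma p under 0.05, which carries no correction for the number of genes, 6 genes lay below for CPIP against Sham (14.3%, against 8.66% of all genes), 2 for CPIP+EA against CPIP (4.76% against 4.29%) and 7 for CPIP+EA against Sham (16.7% against 12.2%).

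A further description of the spread is whether the 3 libraries of one group all lay above or below the 3 of the other. In CPIP against Sham this was so for 11 of the 42 genes, against 15.9% of all genes: 3 genes, Smad1, Tgfbr1 and Gdf11, were higher in every CPIP library (7.98% of all genes were), and 8, Smad9, Smad7, Inhba, Bmpr1a, Bmpr1b, Acvr1b, Bmpr2 and Acvr2b, were lower (7.9%). The satellite glia marker sum was separated in the same comparison, and its part in these differences was not tested. In CPIP+EA against CPIP it was so for 3 genes, against 8.23% of all genes, and 0 were higher (4.84%) while Gdf11, Inhbb and Acvr1 were lower after treatment (3.4%). In CPIP+EA against Sham 11 genes were separated, against 16.2% of all genes: 2, Smad1 and Tgfbr1, were higher (8.87%), and 9, Smad9, Smad6, Smad7, Inhba, Bmp3, Bmpr1a, Acvr1b, Bmpr2 and Acvr2b, were lower (7.32%).

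More of the 42 log2 fold changes were negative than over the whole table, as the plot of fold changes by role shows. They were negative for 28 genes in CPIP against Sham (66.7%, against 52.1% of all genes), for 30 in CPIP+EA against CPIP (71.4% against 45.9%) and for 35 in CPIP+EA against Sham (83.3% against 49.6%). The shifts were small, with medians of -0.04, -0.07 and -0.12 on the log2 scale beside -0.0064, 0.012 and 0.0014 over all genes, and single libraries weighed on the medians and the counts. The first median was -0.0035 without Sham replicate 3, and the second and last were -0.012 and -0.061 without CPIP+EA replicate 2. Leaving out Sham replicate 3 brought the first count to 21 of 42, leaving out CPIP+EA replicate 2 brought the second to 24, and leaving out CPIP+EA replicate 1 brought the last to 28. The 12 lists of cell type markers are given beside these counts; 0 markers passed the threshold, and the sums overlapped in each comparison except that of satellite glia in CPIP against Sham. In CPIP+EA against Sham, log2 fold changes were negative for 9 of 10 fibroblast and meninges markers (827.6 to 1524 FPKM summed, against 1342 to 1880), 4 of 4 perineurium markers (149 to 177 against 172 to 186), 4 of 4 mural cell markers (61.3 to 85.1 against 73.5 to 96.6), 5 of 6 Schwann cell markers (4834 to 9440 against 7156 to 11229), 7 of 10 sensory neuron markers (8074 to 9987 against 8371 to 9746) and 3 of 5 endothelium markers (45.2 to 64.3 against 41.3 to 61.5). In CPIP+EA against CPIP they were negative for 8 of 10 fibroblast and meninges, 4 of 4 perineurium, 4 of 4 mural cell, 5 of 6 Schwann cell, 4 of 10 sensory neuron and 4 of 5 endothelium markers. Other lists went the other way or were mixed: in CPIP+EA against Sham the negative ones were 0 of 5 neutrophil, 0 of 5 skeletal muscle, 2 of 5 macrophage, 3 of 5 erythroid, 3 of 4 satellite glia and 4 of 6 cartilage and bone markers, and in CPIP+EA against CPIP 0 of 5, 4 of 5, 3 of 5, 0 of 5, 2 of 4 and 5 of 6. In CPIP against Sham they were 0 of 6 Schwann cell, 0 of 5 neutrophil, 0 of 5 skeletal muscle, 1 of 6 cartilage and bone, 1 of 4 perineurium, 2 of 5 endothelium, 2 of 5 macrophage, 6 of 10 fibroblast and meninges, 7 of 10 sensory neuron, 3 of 4 satellite glia, 4 of 4 mural cell and 5 of 5 erythroid markers. No list had a defining marker at 0 in every library, and the part of these cells in the levels of the family was not tested.

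**Figure D1:**
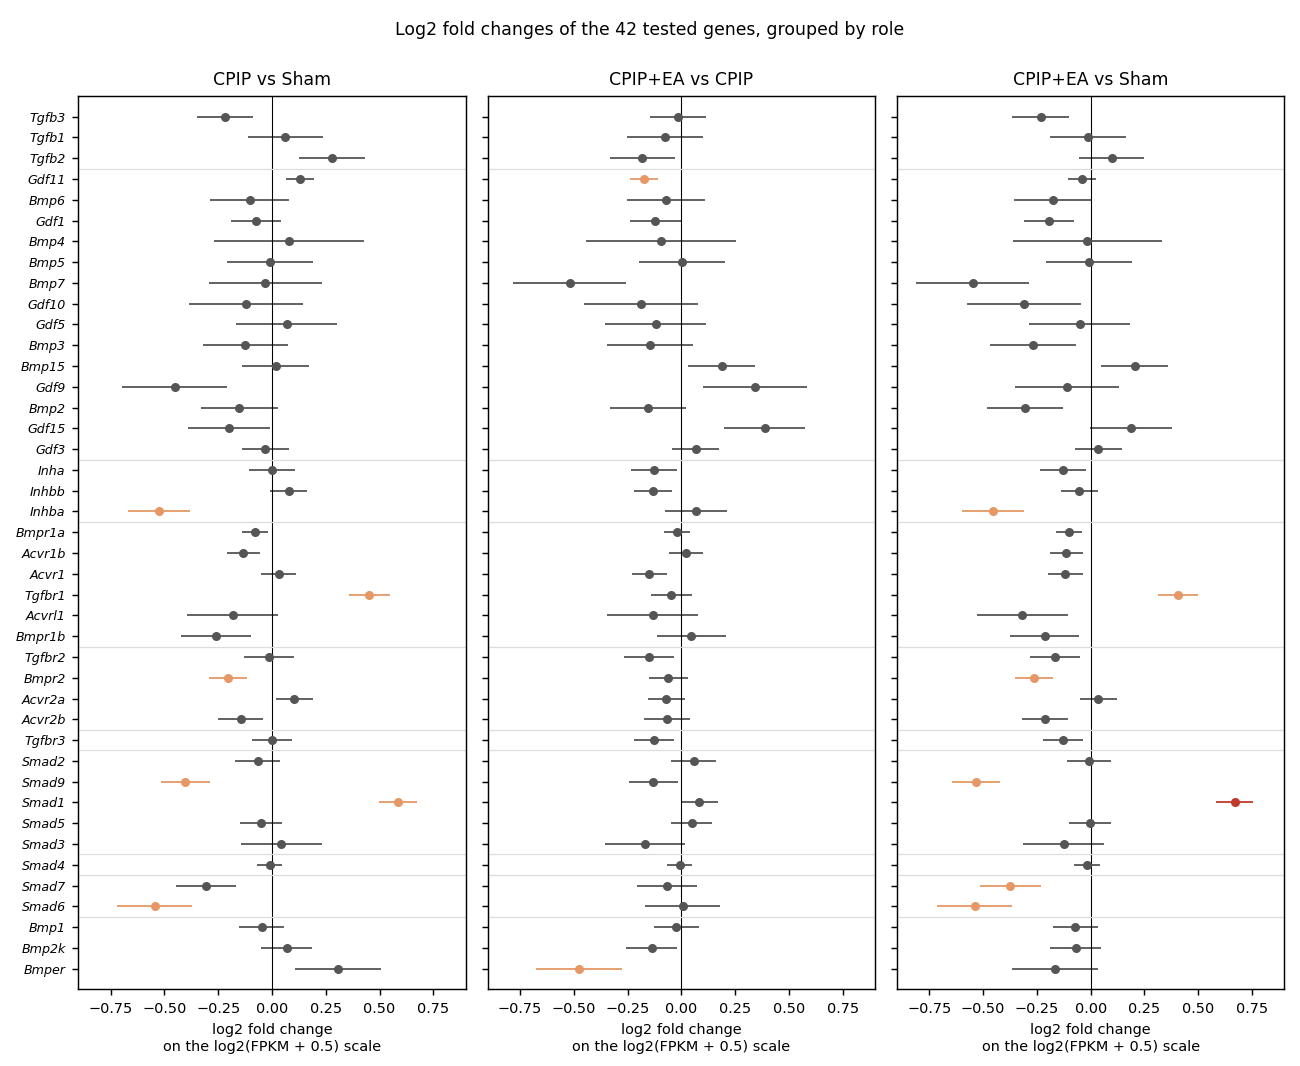
Log2 fold changes of the 42 tested genes in the 3 comparisons, on the log2(FPKM + 0.5) scale, grouped by role with grey lines between roles; points are limma estimates and bars their standard errors. Red marks a gene past the threshold, orange an unadjusted p under 0.05 and grey all others: Smad1 is the only red point, at 0.67 in CPIP+EA against Sham, and most points lie near or left of 0.

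Smad1, a receptor-activated SMAD of the BMP branch, had the largest log2 fold change from Sham in CPIP and in CPIP+EA on the log2(FPKM + 0.5) scale, which lessens the changes of low genes; by the ratio of means, Inhba and Smad6 among other genes of low level differed from Sham by more. Its level was 9.12, 9.39 and 8.13 FPKM in the Sham libraries, 12.68, 13.27 and 14.79 after CPIP and 15.45, 14.25 and 13.55 after CPIP+EA. Every CPIP and CPIP+EA library lay above every Sham library, while the CPIP and CPIP+EA libraries overlapped. The group means were 8.88 ± 0.663, 13.6 ± 1.09 and 14.4 ± 0.961 FPKM (SD, n = 3 each). Smad1 rose 1.62-fold by these means in CPIP+EA against Sham, with a log2 fold change of 0.67 (SE 0.086) and an adjusted p of 0.00671. The size was steady, at 0.61 to 0.71 whichever library was left out, but the adjusted p was between 0.00586 and 0.0377 over 19 alternatives and lay above 0.01 in 13 of them, including every leave-out except that of CPIP replicate 3. In CPIP against Sham the log2 fold change was 0.59 (SE 0.086), or 1.53-fold by the means, and the adjusted p of 0.0184 missed the threshold, as it did under each alternative (0.0153 to 0.0826). For CPIP+EA against CPIP the log2 fold change was 0.08 (SE 0.086), with an adjusted p of 0.997.

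Smad9, which encodes another receptor-activated SMAD of the BMP branch, differed in the opposite direction. It stood at 18.14, 18.36 and 15.95 FPKM in Sham, at 12.41, 12.86 and 14.02 after CPIP and at 13.77, 12.21 and 10.05 after CPIP+EA, so that the Sham libraries were the 3 highest. The log2 fold change against Sham was -0.40 (SE 0.11) in CPIP and -0.53 (SE 0.11) in CPIP+EA, with adjusted p of 0.239 and 0.0624, neither past the threshold. LOC103691556, a separate gene model to which the study gives the full name of SMAD9, is among its top upregulated genes in CPIP+EA against CPIP. It was listed at 0 in 8 libraries and at 1.56 FPKM in CPIP+EA replicate 3, the library in which Smad9 was lowest. Whether the counting divided reads between them was not tested; the sum of both in that library, 11.6 FPKM, was still the lowest of the 9.

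Smad5, the remaining SMAD of the BMP branch, had group means of 11.6, 11.3 and 11.6 FPKM, and the groups overlapped. Smad1, Smad5 and Smad9 summed to nearly the same level in each group, 38.0 ± 2.10 FPKM in Sham, 38.0 ± 1.60 after CPIP and 38.0 ± 2.45 after CPIP+EA (SD, n = 3), while the make-up of that sum differed. Smad1 made up 22.9% to 24.0% of this sum in Sham, 34.0% to 38.3% in CPIP and 37.8% to 38.0% in CPIP+EA. Smad9 made up 44.9% to 46.8%, 32.9% to 36.3% and 28.0% to 33.8%. The ratio of Smad1 to Smad9 was 0.503 to 0.511 in the Sham libraries, 1.02 to 1.06 after CPIP and 1.12 to 1.35 after CPIP+EA, with no overlap between any of the groups. These shares were chosen after the levels of the genes were known and are given as a description, without a test.

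**Figure D2:**
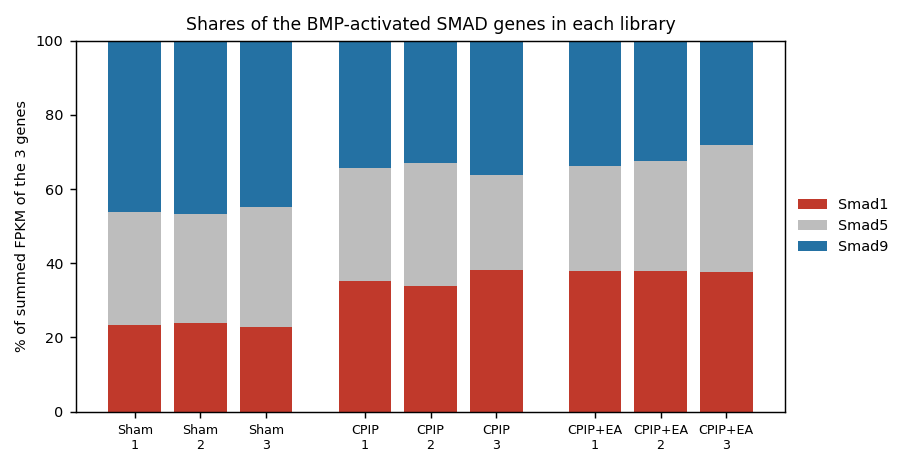
Share of each of Smad1, Smad5 and Smad9 in their summed FPKM, in percent, 1 bar for each library. The Smad1 share lies between 22.9% and 24.0% in the 3 Sham bars and between 34.0% and 38.3% in the other 6, and the Smad9 share is correspondingly smaller there.

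The SMAD genes of the TGF-beta and activin branch, and the shared partner Smad4, overlapped between groups in every comparison. Smad2 had group means of 19.1, 18.2 and 19.0 FPKM and Smad4 of 17.7, 17.6 and 17.5 FPKM, and no Smad4 library lay outside 16.96 to 18.46 FPKM. Smad3 was much lower, between 1.95 and 3.41 FPKM. Over the 3 comparisons their log2 fold changes ran from -0.17 to 0.06, with adjusted p of at least 0.851.

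The inhibitory SMAD genes were lower than in Sham, without passing the threshold. Smad7, whose product blocks type I receptors, was at 2.56, 2.32 and 2.33 FPKM in Sham, 1.58, 1.97 and 2.02 after CPIP and 2.10, 1.39 and 1.79 after CPIP+EA, below every Sham library in all 6. Its log2 fold change against Sham was -0.31 (SE 0.14, adjusted p 0.604) in CPIP and -0.37 (SE 0.14, adjusted p 0.317) in CPIP+EA. Smad6, the inhibitor more specific to BMP signals, was at 1.77, 1.02 and 1.81 FPKM in Sham, 0.82, 0.77 and 1.03 after CPIP and 0.84, 0.80 and 0.99 after CPIP+EA. Sham replicate 2 thus stood apart from the other Sham libraries and just below CPIP replicate 3. The log2 fold change was -0.55 (SE 0.17) in CPIP and -0.54 (SE 0.17) in CPIP+EA against Sham, with adjusted p of 0.336 and 0.239.

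**Figure D3:**
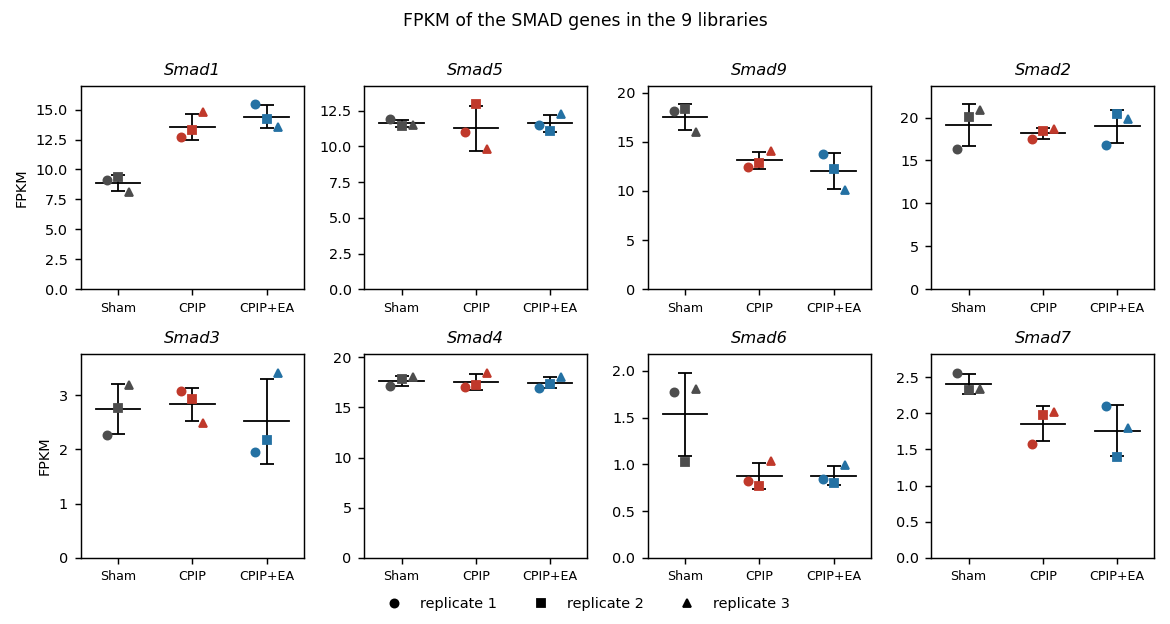
FPKM of the 8 SMAD genes in the 9 libraries, 1 panel for each gene, with a linear axis from 0; points are libraries (shape gives the replicate number), horizontal lines group means and bars 1 SD. Smad1 is higher and Smad9 and Smad7 are lower in all 6 CPIP and CPIP+EA libraries than in the 3 Sham libraries, while Smad2, Smad4 and Smad5 overlap between the groups.

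Among the type I receptors, Tgfbr1, the kinase through which TGF-beta ligands act, stood apart from the rest. It was at 5.96, 6.23 and 6.94 FPKM in Sham, 8.14, 8.92 and 9.69 after CPIP and 8.59, 7.98 and 9.26 after CPIP+EA. Both model groups lay wholly above Sham and overlapped with each other. The log2 fold change against Sham was 0.45 (SE 0.095, adjusted p 0.0848) in CPIP and 0.41 (SE 0.095, adjusted p 0.0895) in CPIP+EA, so neither passed.

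Of the 6 tested type I receptor genes, 4 had a negative log2 fold change against Sham in CPIP and 5 in CPIP+EA, Tgfbr1 being the only positive one in the latter. Bmpr1a, a main BMP receptor, was at 16.01 to 17.36 FPKM in Sham, 15.11 to 15.81 after CPIP and 14.71 to 15.69 after CPIP+EA. Acvr1b, which binds activins, was at 12.77 to 13.31, 11.50 to 12.07 and 10.64 to 12.76 FPKM. For both genes the Sham libraries were the 3 highest, yet the log2 fold changes against Sham were between -0.08 and -0.13 and the lowest adjusted p was 0.555. Bmpr1b was at 1.99 to 2.20 FPKM in Sham and 1.60 to 1.79 in CPIP, and at 2.11, 2.03 and 1.21 in the CPIP+EA libraries, of which the first and second lay within the Sham range and the last was the lowest of all. Acvr1 was at 8.43 to 9.82 FPKM in CPIP and 7.95 to 8.32 in CPIP+EA, which gave a log2 fold change of -0.15 (SE 0.082, adjusted p 0.997), and Acvrl1, an endothelial receptor, overlapped in every comparison.

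The untested Acvr1c was listed at 0 in the 3 Sham libraries and at 0.06 to 0.10 FPKM in CPIP and 0.06 in each CPIP+EA library. At such levels no difference can be read.

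Of the type II receptors, Bmpr2 was at 31.07, 31.55 and 38.69 FPKM in Sham, 29.69, 27.52 and 30.15 after CPIP and 28.45, 28.96 and 26.33 after CPIP+EA. All 6 CPIP and CPIP+EA libraries lay below Sham, and the log2 fold change was -0.20 (SE 0.089, adjusted p 0.571) in CPIP and -0.26 (SE 0.089, adjusted p 0.264) in CPIP+EA. Sham replicate 3 weighed on both values, which were -0.10 and -0.16 without that library. Acvr2b, an activin receptor of low level, was at 2.49 to 2.61 FPKM in Sham, 2.02 to 2.42 after CPIP and 1.89 to 2.27 after CPIP+EA. Tgfbr2, Acvr2a and the co-receptor Tgfbr3, which presents TGF-beta to its receptors, overlapped in every comparison, and Tgfbr2 spread most in CPIP+EA, from 30.92 to 41.82 FPKM.

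**Figure D4:**
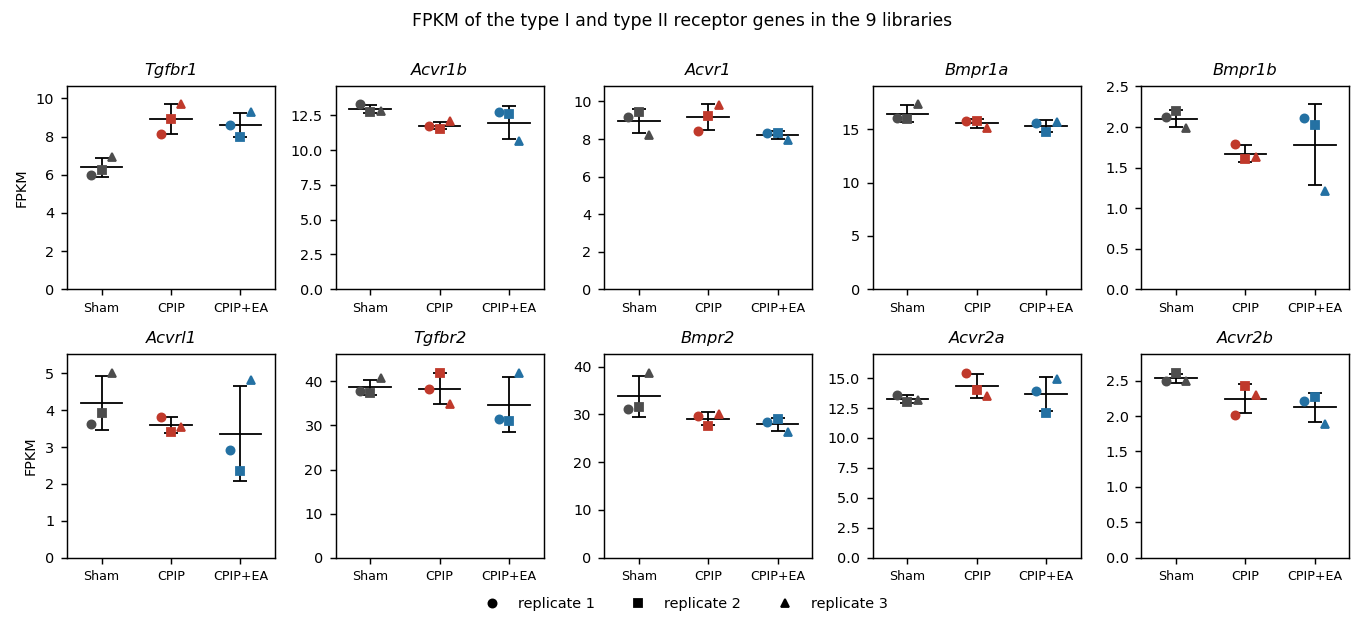
FPKM of the 6 tested type I receptor genes (Tgfbr1, Acvr1b, Acvr1, Bmpr1a, Bmpr1b and Acvrl1) and the 4 type II receptor genes in the 9 libraries, with linear axes from 0; points are libraries, lines group means and bars 1 SD. Tgfbr1 lies at 7.98 FPKM or more in the 6 CPIP and CPIP+EA libraries and at 6.94 or less in Sham, and Bmpr2 at 30.15 or less against 31.07 or more.

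No ligand gene passed the threshold in any comparison. None of the 3 TGF-beta ligands was separated in any comparison: Tgfb3 had group means of 11.5, 9.71 and 9.61 FPKM, with Sham replicate 1 at 14.29, Tgfb1 of 6.92, 7.26 and 7.02 FPKM, and Tgfb2 of 2.87, 3.59 and 3.08 FPKM. Tgfb1 was both lowest and highest in CPIP+EA, at 5.45 in replicate 2 and 9.37 in replicate 3, the libraries with the lowest fibroblast and the highest blood cell marker sums. The part of those cells in its level was not tested.

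Gdf11, the most abundant GDF ligand, was at 10.58, 10.33 and 11.20 FPKM in Sham, 12.02, 11.88 and 11.40 after CPIP and 10.88, 10.31 and 9.97 after CPIP+EA. All CPIP libraries were above all others, by a small margin. The log2 fold change was 0.13 (SE 0.065, adjusted p 0.663) in CPIP against Sham and -0.17 (SE 0.065, adjusted p 0.997) in CPIP+EA against CPIP. Bmp6 overlapped throughout, with 12.71 FPKM in Sham replicate 3 and 6.72 to 9.69 FPKM in the other 8 libraries.

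Bmp7 was the ligand with the largest log2 fold change in CPIP+EA against CPIP on the log2(FPKM + 0.5) scale. It was at 1.53, 2.65 and 3.02 FPKM in Sham, 2.57, 2.03 and 2.22 after CPIP and 0.96, 1.29 and 2.25 after CPIP+EA, and the groups overlapped. Its log2 fold change was -0.52 (SE 0.26, adjusted p 0.997) in CPIP+EA against CPIP and -0.55 (SE 0.26, adjusted p 0.446) against Sham. Gdf15, a stress-induced ligand, was barely detected, at 0.09 to 0.27 FPKM in Sham, at 0.22, 0 and 0 after CPIP and at 0.17 to 0.37 after CPIP+EA, with a log2 fold change of 0.39 (SE 0.19, adjusted p 0.997) after treatment. Bmp4 had the largest spread within groups of the 42 genes, 0.51 on the log2 scale, and ran from 1.53 to 4.38 FPKM within Sham alone.

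Inhba, which encodes the subunit of activin A, was lower than Sham in both model groups. It was at 1.06, 1.14 and 0.80 FPKM in Sham, 0.55, 0.60 and 0.47 after CPIP and 0.55, 0.47 and 0.77 after CPIP+EA, with no overlap with Sham. The log2 fold change was -0.52 (SE 0.14, adjusted p 0.227) and -0.45 (SE 0.14, adjusted p 0.229), and by the means CPIP stood at 0.540 times Sham. Inha and Inhbb, with means of 5.65 and 4.17 FPKM over all libraries, were more abundant and differed less, by -0.13 to 0.08 on the log2 scale. Inhbb was at 4.30 to 4.51 FPKM in CPIP and 3.90 to 4.03 in CPIP+EA, without overlap and with an adjusted p of 0.997.

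The 3 genes outside these roles included Bmper, a secreted binder of BMPs. It was at 1.97, 1.16 and 1.62 FPKM in Sham, 1.63, 2.41 and 2.16 after CPIP and 1.71, 1.0 and 1.35 after CPIP+EA. CPIP+EA and CPIP overlapped, and the log2 fold change between them was -0.48 (SE 0.20, adjusted p 0.997). Bmp1, a protease that matures collagens, and the kinase gene Bmp2k had log2 fold changes between -0.14 and 0.07.

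Sequences upstream of the start site are shown for Smad1, Smad9 and Tgfbr1, the SMAD and receptor genes with the smallest p against Sham, so that the candidate SMAD elements there can be read. Each is the 250 bases before the RefSeq gene start in the GRCr8 assembly, on the plus strand, at chr19:45417292-45417541 for Smad1, chr2:141106418-141106667 for Smad9 and chr5:66449148-66449397 for Tgfbr1. Capitals mark GGCGCC, a GC-rich BMP element that reads the same on both strands, and CAGAC on either strand, the SMAD box.
Smad1: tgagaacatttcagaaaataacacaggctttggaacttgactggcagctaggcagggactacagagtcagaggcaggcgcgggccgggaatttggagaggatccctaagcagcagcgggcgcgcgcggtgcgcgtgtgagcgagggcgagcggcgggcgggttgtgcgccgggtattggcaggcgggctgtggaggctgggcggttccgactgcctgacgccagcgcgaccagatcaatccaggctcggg
Smad9: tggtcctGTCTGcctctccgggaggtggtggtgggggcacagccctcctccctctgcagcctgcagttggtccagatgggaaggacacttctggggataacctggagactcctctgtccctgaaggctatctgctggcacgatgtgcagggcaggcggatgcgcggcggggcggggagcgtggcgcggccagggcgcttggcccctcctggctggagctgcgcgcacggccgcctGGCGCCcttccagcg
Tgfbr1: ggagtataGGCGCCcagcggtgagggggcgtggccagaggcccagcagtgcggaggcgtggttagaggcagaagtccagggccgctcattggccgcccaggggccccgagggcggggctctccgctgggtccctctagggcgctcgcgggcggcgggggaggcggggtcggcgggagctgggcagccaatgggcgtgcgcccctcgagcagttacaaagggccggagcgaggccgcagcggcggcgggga

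The Smad9 window held 1 GGCGCC, starting at base -15 before the gene start, and 1 SMAD box at -243; the Tgfbr1 window held 1 GGCGCC at -242, and neither run of letters was in the Smad1 window. GGCGCC was in 8.70% of 33469 rat promoter windows of this length and in 11 of the 35 windows of the tested genes (31.4%), which belong to 33 genes. CAGAC was in 42.9% of all windows and in 8 of the 35 (22.9%), and the longer palindrome GTCTAGAC in 0.173% and 0. The windows of these genes were also richer in G and C, with a median of 61.6% against 51.2%. A match of letters is a description and not evidence of binding.

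The wider pathway was followed through 66 further genes, of which 61 were tested: 14 antagonists, 16 co-receptors and latency genes, 14 co-regulators, 15 target genes and 2 further family members. For CPIP against Sham 2 of the 61 passed the threshold (3.28%, against 0.355% of all genes), Hamp and Cdkn1a, both target genes; these 2 also passed for CPIP+EA against Sham (0.483% of all genes), and 0 passed for CPIP+EA against CPIP (0%). At an unadjusted p under 0.05 in limma, CPIP against Sham gave 9 (14.8%, against 8.66% of all genes), CPIP+EA against CPIP 3 (4.92% against 4.29%) and CPIP+EA against Sham 9 (14.8% against 12.2%). The list was drawn up with earlier results of these data known. Its shares are therefore a description, and no change of the pathway as a whole can be read from them.

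Cdkn1a, a cell cycle inhibitor that TGF-beta can induce, rose in both model groups. It was at 3.67, 3.63 and 3.95 FPKM in Sham, 8.69, 11.51 and 10.04 after CPIP and 12.36, 9.22 and 8.93 after CPIP+EA, with a log2 fold change of 1.31 (SE 0.14) in each and adjusted p of 0.00257 and 0.00201. Over the alternatives these ran up to 0.0204 and 0.0162, and the call was lost in 6 and 5 of 19, among them the replicate block and each leave-out of a Sham library. Hamp, which encodes hepcidin and is a BMP target in liver, was listed at 0, 0.18 and 0 FPKM in Sham and at 7.65 to 13.15 FPKM in the other libraries. The Id genes, the usual direct targets of BMP signals, did not pass: Id1 was at 9.87 to 16.36 FPKM in Sham, 9.61 to 13.38 after CPIP and 11.47 to 11.61 after CPIP+EA, and Id3 at 42.69 to 53.83, 50.57 to 56.99 and 53.29 to 62.75 FPKM. Other signals also induce Cdkn1a and Hamp, so their levels are not a readout of this pathway alone.

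The antagonists, which bind ligands outside the cell, had 0 of 14 past the threshold in CPIP against Sham, where 0.355% of all genes passed. Nog, which encodes noggin, was at 4.23, 2.61 and 2.86 FPKM in Sham, 1.56, 1.66 and 1.80 after CPIP and 2.30, 1.60 and 1.52 after CPIP+EA, below Sham in all 6. Its log2 fold change was -0.76 (SE 0.18, adjusted p 0.147) in CPIP and -0.69 (SE 0.18, adjusted p 0.146) in CPIP+EA. Chrdl1 and Fstl1 had log2 fold changes of -0.34 and -0.23 in CPIP against Sham, with adjusted p of 0.509 and 0.572.

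Among the co-receptors and latency genes, Itgb6, an integrin subunit that activates latent TGF-beta, had a log2 fold change of -0.58 (SE 0.17, adjusted p 0.277) in CPIP against Sham. Ltbp3, which binds latent TGF-beta in the matrix, was at 25.83, 29.09 and 29.51 FPKM after CPIP and 24.75, 23.21 and 23.71 in CPIP+EA. The CPIP+EA libraries were the 3 lowest of the 9, with a log2 fold change of -0.23 (SE 0.064, adjusted p 0.997) against CPIP. The 14 co-regulators had log2 fold changes between -0.12 and 0.14 in CPIP against Sham, and none had an unadjusted p under 0.05 in any comparison.

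**Figure D5:**
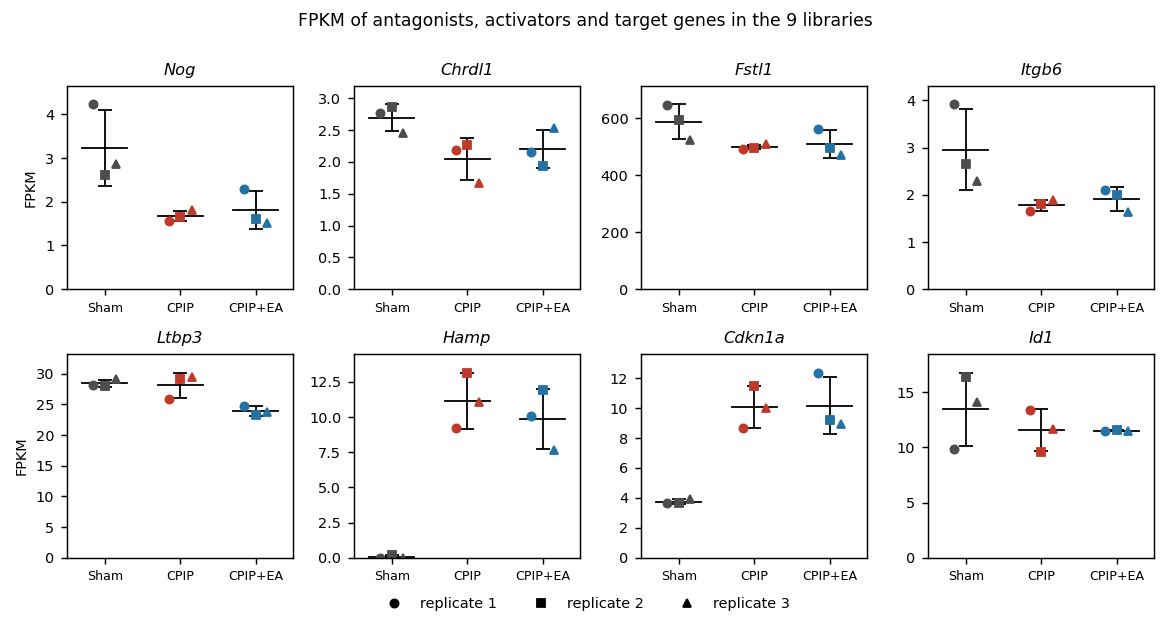
FPKM of 3 antagonist genes (Nog, Chrdl1 and Fstl1), 2 latency genes (Itgb6 and Ltbp3) and 3 target genes (Hamp, Cdkn1a and Id1) in the 9 libraries, with linear axes from 0; points are libraries, lines group means and bars 1 SD. Hamp and Cdkn1a are higher and Nog is lower in the 6 CPIP and CPIP+EA libraries than in Sham, Ltbp3 is lowest in CPIP+EA and Id1 overlaps.

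Some of the spread belonged to single libraries. CPIP+EA replicate 3 held the lowest value of 12 of the 42 genes and CPIP+EA replicate 2 that of 10, or 28.6% and 23.8%, against 14.1% and 10.4% of all genes tested. The median SD within groups was 0.163 on the log2 scale for the 42 genes and 0.141 for all genes.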

How the data were processed

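The authors sequenced polyadenylated RNA of rat L4 to L6 DRG as single-end reads, filtered them with SOAPnuke and deposited FPKM values for each gene and library, with 3 libraries in each group; the aligner, genome build and annotation are not given in the sources used here. Columns of the authors' tests in the deposited table (log2 ratio, p-value and q-value of each comparison) were not used. Values were tested with limma 3.58.1 in R 4.3.3 on log2(FPKM + 0.5), after a filter on a mean of at least 0.1 FPKM, in 1 fit of all 9 libraries with a mean-variance trend and Benjamini-Hochberg adjustment over 17187 genes; the scale understates changes of low genes. The threshold was an adjusted p under 0.01 and at least 1.5-fold. FPKM keep no read depth, so no counting interval is given.

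The genes, lists and tests were chosen with earlier results of these data known. Genes named with values were those past the threshold or at an unadjusted p under 0.05, the 2 most abundant of each role, the 3 largest changes of each comparison, Smad9 with its copy, and up to 4 further pathway genes a class by p; Smad3, Smad5, Tgfb2, Bmp4, Bmp3, Acvr1, Acvr1c, Acvrl1, Acvr2a, Acvr2b, Bmpr1b, Fstl1 and Id1 were named after their values were seen, and a gene that the rule selects is not reported here. Promoter windows are from a RefSeq table (GRCr8), in which 40 of the 49 genes were matched. The fit was tested on simulated data. Alternatives were other pseudocounts, filters, scalings, no trend, a replicate block, only the 2 groups compared, and each library left out.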

Additional observations from a re-analysis of the deposited data

How the results depend on the processing

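Over 3 comparisons and all alternatives, 0 genes of the family passed the threshold for CPIP+EA against CPIP, and for CPIP against Sham 0 passed except at an adjusted p under 0.05 with no fold limit, where 1 did, Smad1. For CPIP+EA against Sham the single call, Smad1, became 0 with no filter on low values, on a TPM scale, without the mean-variance trend, with the replicate block and with only the 2 groups compared, and lay between 0 and 1 when a library was left out. At an unadjusted p under 0.05, CPIP+EA against CPIP gave 2 genes, 1 with the replicate block, and 0 to 7 when a library was left out, with 0 without CPIP replicate 2 or CPIP+EA replicate 2 and 7 without CPIP+EA replicate 3. The cause was not tested. No log2 fold change named above changed its sign where it was called.

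Replicate numbers are shared by the groups. Pearson r across genes was -0.236 to 0.297 for same-numbered libraries and -0.223 to 0.28 for differently numbered ones. These ranges were nearly the same, so the block was an alternative only. With it 26 genes of the whole table passed for CPIP against Sham and 42 for CPIP+EA against Sham, in place of 61 and 83. With no filter these were 40 and 55, with only the 2 groups compared 45 and 51, and with a library left out 30 to 62 and 35 to 82. The deposited FPKM carry no read counts, so the limit set by depth was not computed here.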
